A study of Mus musculus with 13 samples.

Results

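Macrophage marker genes were followed in the endometrium of ovariectomized mice that carried an estradiol pellet, ate a high-fat diet, had both or had neither. A list of 34 gene symbols was matched to array features that carry that symbol alone, and 32 of the 34 had such a feature, each exactly 1. The 2 others were Ctsd, whose feature also carries another symbol, and Spp1, which had no feature with 1 symbol, and neither is given values here. The 32 genes stand among 30142 symbols with a feature of their own and among 65929 features tested. The members were arranged in 7 role groups: resident-type surface markers, monocyte-like and integrin markers, Fc receptors and their adaptors, pattern and scavenger receptors, lysosomal and endosomal proteins, lipid-handling markers, and oxidase and other myeloid markers.

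The 13 mice were female C57BL/6 animals whose ovaries had been removed on both sides at 6 to 8 weeks of age, the control mice included, and each gave 1 array. Treatment lasted 12 weeks. MIX mice (n = 3) had a pellet under the skin that releases 17-β estradiol and ate a high-fat diet, E2 mice (n = 4) had the pellet on normal chow, HD mice (n = 3) ate the high-fat diet without a pellet, and CON mice (n = 3) had chow and no pellet. The tissue was scraped from the opened uterus, so it held epithelium, stroma, vessels and leukocytes together. In such bulk tissue, fewer cells of a type and less RNA per cell cannot be told apart. Values are log2 expression after RMA normalisation, so a difference of 1 is a 2-fold difference.

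Macrophages of the uterus arise from circulating monocytes and from cells that persist in the tissue, and both depend on signalling through the receptor Csf1r. Estradiol is known to act on uterine leukocyte numbers in rodents. Monocytes enter by chemokine receptors such as Ccr2, take up debris through scavenger and Fc receptors and break it down in lysosomes, and lipid-laden macrophages express Trem2 and Gpnmb. No single marker is restricted to macrophages: Itgam, the Fc receptors, Cybb and Clec7a are also expressed by neutrophils, Itgax by dendritic cells, and Ctsb by most cells.

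The transcription factor PU.1 drives many macrophage genes through sites built on the letters GAGGAA, and the promoter windows of the members were searched for these letters as a description. RefSeq promoter windows (GRCm38.p6, 250 bases before to 50 after the start site) were at hand for 27 of the 34 symbols. The letters GAGGAAGT, read on both strands, stood in the windows of 4 of these 27 genes (14.8%), which were Fcgr4, Ctss, Pld4 and the unmeasured Spp1, and in those of 997 of 27025 genes overall (3.69%). The shorter GAGGAA, which lies within it, stood in 18 of 27 (66.7%) and in 8446 genes overall (31.3%). Of the measured members with this shorter motif, Marco and Laptm5 were not higher with the pellet by the averaged fit, while the others were. Those others included Cybb, Clec7a, Itgam, Ctss and Cd68. Of the measured members without it, Cd163 was not higher, while Lyz2, Fcer1g, Gpnmb, Itgax, Cx3cr1, Ccr2 and Lgmn were. None of these differences passed with all mice, and the part of the motif in them was not tested. Spi1, the gene for PU.1, had no feature with its symbol alone and is given no values. A match is a description of letters and not a binding site, and no binding was measured. The windows of the 3 measured genes with the longer motif, and that of Cybb, the member with the smallest p, which holds the shorter motif, read 5′ to 3′ on the gene's strand as follows, with the motif or its reverse complement in capitals.
Fcgr4, chr1:171018676-171018975, plus strand: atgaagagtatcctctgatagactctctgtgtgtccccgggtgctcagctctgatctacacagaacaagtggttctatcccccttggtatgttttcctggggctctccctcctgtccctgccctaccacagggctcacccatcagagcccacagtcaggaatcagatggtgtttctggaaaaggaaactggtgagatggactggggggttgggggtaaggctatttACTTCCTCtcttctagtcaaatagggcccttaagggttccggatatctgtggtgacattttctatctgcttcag
Ctss, chr3:95526536-95526835, plus strand: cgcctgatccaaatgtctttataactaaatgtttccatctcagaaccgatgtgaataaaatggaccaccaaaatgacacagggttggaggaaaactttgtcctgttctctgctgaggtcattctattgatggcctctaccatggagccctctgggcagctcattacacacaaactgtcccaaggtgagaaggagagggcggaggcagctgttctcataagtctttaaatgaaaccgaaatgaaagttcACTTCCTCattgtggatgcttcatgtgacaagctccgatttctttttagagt
Pld4, chr12:112760405-112760704, plus strand: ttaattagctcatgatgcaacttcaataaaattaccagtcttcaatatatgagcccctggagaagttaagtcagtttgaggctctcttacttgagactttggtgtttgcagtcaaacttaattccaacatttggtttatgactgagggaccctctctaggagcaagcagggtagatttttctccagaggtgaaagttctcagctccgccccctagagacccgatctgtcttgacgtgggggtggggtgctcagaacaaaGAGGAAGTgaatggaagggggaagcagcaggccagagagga
Cybb, chrX:9469275-9469574, minus strand: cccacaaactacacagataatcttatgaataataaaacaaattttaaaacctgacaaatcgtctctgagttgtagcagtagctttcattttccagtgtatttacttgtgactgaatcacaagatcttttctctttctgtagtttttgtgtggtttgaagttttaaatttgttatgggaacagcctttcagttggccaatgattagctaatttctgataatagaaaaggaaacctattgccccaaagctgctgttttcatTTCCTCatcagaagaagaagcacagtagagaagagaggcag

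Some arrays stood apart. On the first principal component of all features, which held 33.4% of the variance, MIX replicate 3 scored -102.46 and E2 replicate 1 -46.99, and on the second (15.2%) MIX replicate 2 scored -72.19. All MIX mice and 1 mouse of each other group carry lettered codes in their titles, the other mice numbered codes, and the fit holds a term for this code style. Fitted differences that involve MIX therefore depart from plain differences of means. Epithelial markers averaged 9.40 to 9.94 in every mouse, so the labelled tissue was detected by its epithelial genes. Other tissue markers varied more among the MIX mice. Replicates 1, 2 and 3 averaged 8.05, 9.52 and 8.96 for stromal markers and 5.22, 7.68 and 6.20 for endothelial markers. The part of this spread in the members' values was not tested. Among the genes that report on estradiol, Ltf differed by 0.82 (SE 0.29, adjusted p = 0.478 in limma) between MIX and CON and by 0.44 (SE 0.23, adjusted p = 1) between E2 and CON, Lcn2 by 0.49 and 0.17, Esr1 by -0.69 and -0.46, and Pgr by -1.14 and -0.57 (adjusted p from 0.577 to 1), so none of them passed.

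Most macrophage markers had group means above the middle of the array values in every group, although that is not a measured background level. Of the 32 measured members, only Cd163 had a mean below 4.61, the median of all values on all arrays, in every group. Fcgr4 and Msr1 did so in HD and CON alone. The mean over the 32 members was 6.84, 7.17 and 8.24 in the MIX mice, 7.49, 6.86, 7.47 and 7.2 in the E2 mice, 6.86, 6.71 and 6.68 in the HD mice, and 6.52, 6.18 and 6.02 in the CON mice. Every treated mouse thus lay above every CON mouse, and the lowest MIX mouse lay within the range of the HD mice. CON had the lowest group mean for 29 of the 32 members. MIX had the highest mean for 19, E2 for 10, CON for 2 and HD for 1, and the order MIX, E2, HD, CON from high to low held for 17 members.

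**Figure D1:**
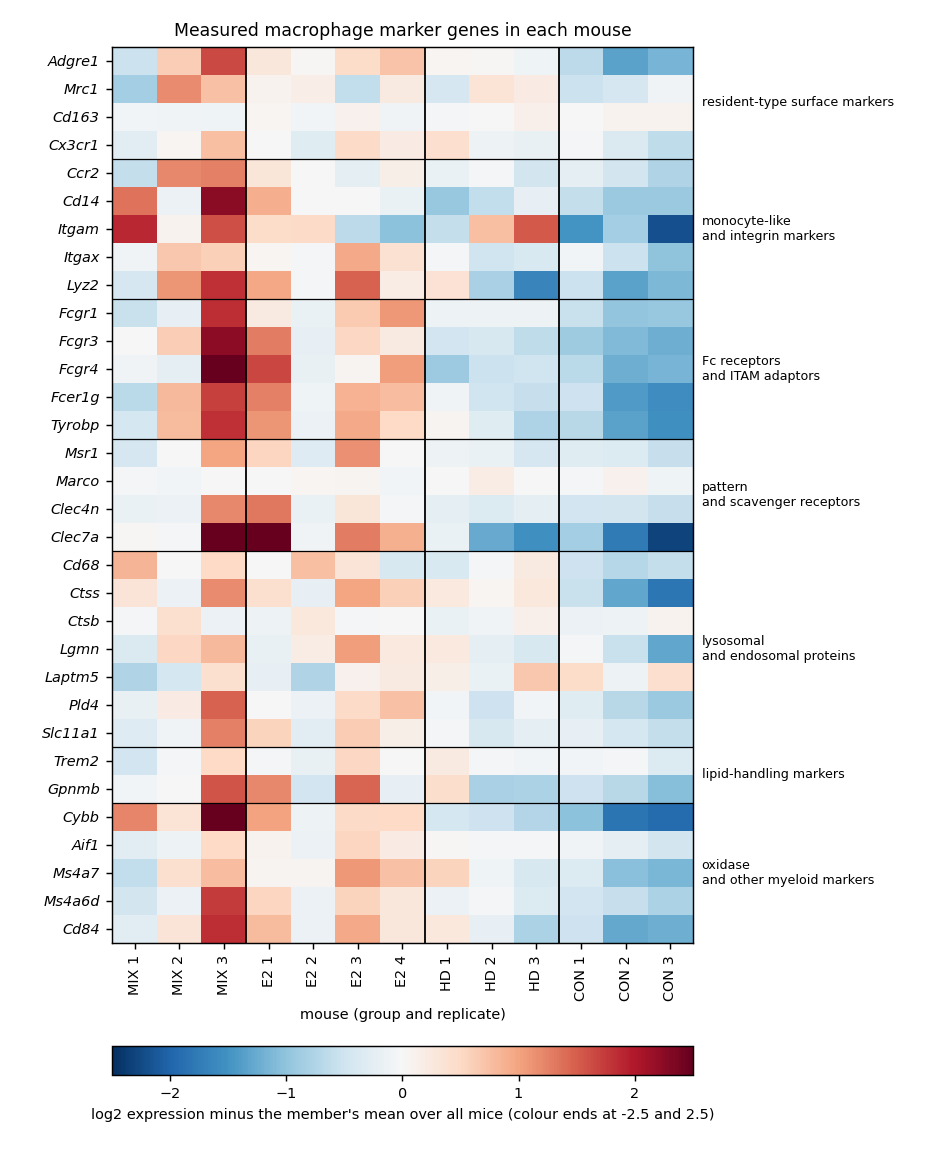
Each row is a measured macrophage marker gene and each column a mouse, and the colour gives log2 expression minus that gene's mean over all 13 mice, with the role groups named at the right. MIX replicate 3 is the darkest red column, with the highest value of all mice for 17 of 32 members, and CON replicate 3 holds the lowest for 20.

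The mice of a group differed most where the pellet and the diet were combined. The median SD over the members was 0.90 in MIX, 0.49 in E2, 0.24 in HD and 0.28 in CON, while over all features it was 0.14, 0.14, 0.12 and 0.10 in the same order of groups. MIX had the largest SD of the 4 groups for 25 members, and Fcgr4 in MIX had the widest at 1.67. MIX replicate 3 was the highest of all mice for 17 members, E2 replicate 3 for 6 and the HD mice for 3. MIX replicate 1 had the lowest value of all mice for 3 members but the highest Itgam (11.24) and Cd68 (10.13) of all mice. The mean of the neutrophil markers also stood highest in MIX replicate 3 and E2 replicate 1, and the part of these markers in the members' values was not tested.

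MIX mice had both treatments and CON mice neither. Between them, the median fitted difference of the 32 members was 1.17 and 30 were higher in MIX (29 without the code style term), while the median over all features was -0.028. Cybb (3.27, SE 0.65), Clec7a (3.08, SE 0.98) and Itgam (2.88, SE 0.76) had the largest differences. In limma, 0 of 32 members passed at an adjusted p under 0.05 (0.00303% of all features did), the smallest adjusted p being 0.251 for Cybb. At an unadjusted p under 0.05, 18 members were higher (3.7% of all features), and for 17 every MIX mouse lay above every CON mouse (5.52% of all features). These shares are descriptions and no test. They were taken in the main fit of all mice, here and below, and no share is given for the refits. The comparisons with CON share the CON mice, so they are not independent of each other. The first count was 7 without CON replicate 3, and the second 26 without MIX replicate 1. A count without overlap can only stay or rise when a mouse is left out, here and below, so it does not show robustness. With array weights the first count was 10 and the median 0.73, and in a fit of MIX and CON alone the count was 6. Among lettered mice alone the median was 1.39. The only lettered CON mouse, here and in every lettered median below that involves CON, was CON replicate 3, which was lowest of all mice for 20 members. Ccr2 passed when MIX replicate 1 was dropped (1.84, SE 0.20, adjusted p = 0.0337), and Cybb when MIX replicate 2 was (3.87, SE 0.56, adjusted p = 0.0481).

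E2 and CON mice differ by the pellet, on chow. The median difference of the members was 0.92, with 30 of 32 higher in E2, against a median of -0.009 over all features. Clec7a (2.85, SE 0.80), Cybb (2.03, SE 0.53) and Fcer1g (1.83, SE 0.51) stood at the top, and Laptm5 (-0.37, SE 0.28) and Cd163 (-0.05, SE 0.07) were on the other side of 0. No member passed in limma (0 of 32, and 0% of all features), and every adjusted p was 1. At an unadjusted p under 0.05, 18 members were higher (1.93% of all features), and for 19 members all E2 mice lay above all CON mice (3.01% of all features). Leaving out CON replicate 2 gave 9 at the unadjusted threshold, leaving out CON replicate 3 gave 11, and leaving out E2 replicate 4 gave 12. The median was 0.96 among mice with numbered codes and 1.12 among the lettered ones, with 1 mouse a group.

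HD and CON mice differ by the diet, with no pellet, and the members differed less here. The median was 0.39 with 30 of 32 members higher in HD (0.017 over all features). Itgam (2.08, SE 0.66), Ctss (1.40, SE 0.40), Adgre1 (1.04, SE 0.44) and Cybb (1.02, SE 0.57) had the largest differences, each with an adjusted p of 1. In limma 0 of 32 members passed (0% of all features), 3 were higher at an unadjusted p under 0.05 (1.99% of all features), and for 10 all HD mice lay above all CON mice (5.58% of all features). The count of 3 was 16 in a fit of HD and CON alone, and it was 1 when HD replicate 3 or CON replicate 3 was dropped. Dropping MIX replicate 1 gave 5, MIX replicate 3 gave 7, and MIX replicate 3 together with E2 replicate 1 gave 9. The count of 10, which can only stay or rise when a mouse is left out, was 16 without HD replicate 3 and 22 without CON replicate 1. The median was 0.19 with array weights, 0.38 among numbered mice and 0.53 among the lettered mice, which were HD replicate 3 and CON replicate 3.

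MIX and HD differ by the pellet on the high-fat diet. The median difference of the members was 0.66, with 29 of 32 higher in MIX (-0.044 over all features). Clec7a (2.42, SE 0.98), Cybb (2.25, SE 0.65) and Lyz2 (2.03, SE 0.68) stood highest. In limma 0 of 32 passed (0.00455% of all features), and the smallest adjusted p was 0.654. At an unadjusted p under 0.05, 7 were higher (2.41% of all features), and 6 were higher in every MIX mouse than in every HD mouse (3.47% of all features). This comparison leaned on single mice. The median was 0.25 without MIX replicate 3, 0.19 without both MIX replicate 3 and E2 replicate 1, 0.41 with array weights and 0.6 among lettered mice. The count of 7 was 4 without MIX replicate 3, CON replicate 3, HD replicate 2 or HD replicate 3, 3 without both MIX replicate 3 and E2 replicate 1, 14 without MIX replicate 1 and 0 in a fit of MIX and HD alone. The count of 6, which can only stay or rise in this way, was 9 without MIX replicate 2 or HD replicate 1 and 17 without MIX replicate 1. Without MIX replicate 1, Ccr2 also passed in limma (1.58, adjusted p = 0.0385), with no share of all features given for that refit.

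MIX and E2 differ by the diet among mice with a pellet. The median was 0.16, with 26 of 32 members higher in MIX by the fit (-0.019 over all features). Without the code style term the median was 0.06 with 19 of 32 higher, and with array weights it was -0.04 with 14 higher. The plain difference was below 0, if barely for Ctss, for Fcer1g, Msr1, Marco, Clec4n, Clec7a, Ctss, Lgmn and Trem2, whose fitted values were above 0. Itgam (1.58, SE 0.75), Cybb (1.24, SE 0.64) and Cd14 (1.00, SE 0.58) had the largest differences, each with an adjusted p of 1. In limma 0 of 32 members passed (0% of all features), 0 were higher at an unadjusted p under 0.05 (1.25% of all features), and 0 had all MIX mice above all E2 mice (1.5% of all features). Leaving out MIX replicate 3 gave a median of -0.11 with 11 of 32 members higher, and among lettered mice the median was 0.07. At an unadjusted p under 0.05, 3 members were higher with array weights and also when MIX replicate 1 or MIX replicate 2 was dropped, and 2 were lower when MIX replicate 3 was dropped. Up to 3 members had no overlap when MIX replicate 1 or 2 was left out, a count that can only stay or rise in this way.

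Averaged over both diets, pellet mice exceeded mice without a pellet by a median of 0.81 over the members, with 29 of 32 higher (-0.027 over all features). In limma 0 of 32 members passed (0.0167% of all features), with Cybb nearest (2.14, SE 0.41, adjusted p = 0.188). At an unadjusted p under 0.05, 22 were higher (3.73% of all features), a count that was 12 without CON replicate 3, and the median was 1.06 among lettered mice. For 6 members, Cybb, Clec7a, Clec4n, Fcgr3, Fcgr4 and Cd14, each of the 7 pellet mice lay above each of the 6 others (0.344% of all features). Without MIX replicate 3 and E2 replicate 1 the difference was 1.65 for Cybb, 1.83 for Clec7a, 1.07 for Fcgr3, 0.94 for Cd14, 0.79 for Fcgr4 and 0.34 for Clec4n, with adjusted p from 0.141 to 0.538. Without MIX replicate 1, Ccr2 (1.05, adjusted p = 0.0226), Tyrobp (1.84, adjusted p = 0.0408) and Fcer1g (1.82, adjusted p = 0.0498) passed in limma. The share of all features that passed in that refit is not given, so these passes cannot be set against it.

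The interaction, MIX minus HD less E2 minus CON, had a median of -0.16, and 26 of 32 members were below 0 (-0.037 over all features). Ctss had the largest such value (-1.28, SE 0.61, adjusted p = 1), followed by Ms4a7 (-0.99, SE 0.62) and Fcgr1 (-0.97, SE 0.80). In limma 0 members passed (0% of all features), and 0 were lower at an unadjusted p under 0.05 (1.45% of all features), a count that was 4 without MIX replicate 3 and 6 without both MIX replicate 3 and E2 replicate 1. The median was 0.08 without MIX replicate 1, -0.54 without MIX replicate 3 and -0.30 among lettered mice.

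**Figure D2:**
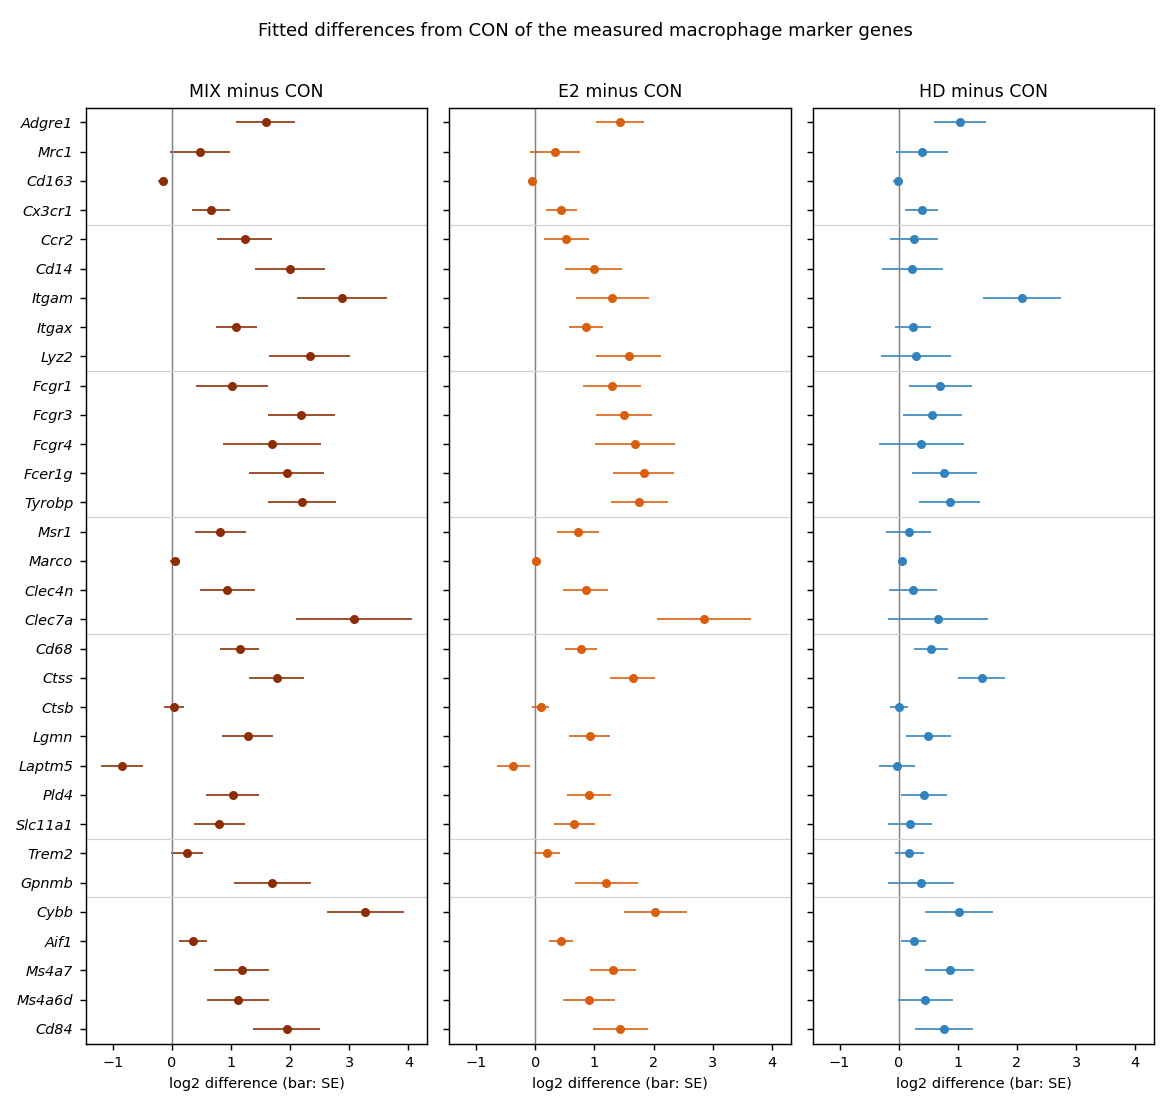
Points give the fitted log2 difference of each measured member from CON, bars its standard error, in MIX (left), E2 (middle) and HD (right), with grey lines between the role groups. Most points lie right of 0 in all 3 panels, Cd163, Marco and Ctsb lie at or near 0, and Laptm5 lies at -0.84 in MIX.

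Among the resident-type surface markers, Adgre1 encodes the classical surface marker of mouse macrophages. Adgre1 was at 6.14, 7.29 and 8.32 in MIX, at 6.96, 6.69, 7.12 and 7.39 in E2, at 6.71, 6.69 and 6.56 in HD and at 6.01, 5.33 and 5.5 in CON. All mice of the 3 treated groups lay above all CON mice, and the SD of the HD mice was 0.08. The difference from CON was 1.59 (SE 0.50, adjusted p = 0.442 in limma) in MIX, 1.43 (SE 0.41, adjusted p = 1) in E2 and 1.04 (SE 0.44, adjusted p = 1) in HD. Without MIX replicate 3 and E2 replicate 1, MIX exceeded CON by 1.07 and HD by 0.03.

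The other resident-type genes differed less. Cx3cr1, the fractalkine receptor of monocytes and resident macrophages, was at 6.26, 6.57 and 7.28 in MIX, 6.52, 6.22, 7.0 and 6.73 in E2, 6.93, 6.39 and 6.34 in HD and 6.47, 6.15 and 5.88 in CON. Each treated group overlapped CON, and the difference was 0.66 (SE 0.32, adjusted p = 0.638) for MIX and 0.44 (SE 0.26, adjusted p = 1) for E2, while without MIX replicate 3 and E2 replicate 1 it was 0.39 for MIX. Mrc1, the mannose receptor, ran from 5.27 to 7.31 in MIX, 5.5 to 6.34 in E2, 5.70 to 6.47 in HD and 5.59 to 6.04 in CON, with its lowest value in MIX replicate 1 and its highest in MIX replicate 2. Cd163, the scavenger receptor for hemoglobin with haptoglobin, was at 4.24, 4.22 and 4.20 in MIX, 4.35, 4.24, 4.40 and 4.21 in E2, 4.26, 4.31 and 4.43 in HD and 4.30, 4.38 and 4.38 in CON. All MIX mice lay below all HD and all CON mice, by a small step: MIX minus CON was -0.15 (SE 0.08, adjusted p = 0.691). Differences of features this dim can be understated on arrays.

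Monocyte-like and integrin markers had the largest median difference of the role groups between MIX and CON, at 2.00, against 0.99 between E2 and CON and 0.26 between HD and CON. Lyz2, the lysozyme of myeloid cells, was at 8.95, 10.47 and 11.19 in MIX, 10.33, 9.34, 10.85 and 9.55 in E2, 9.74, 8.55 and 7.72 in HD and 8.83, 8.04 and 8.25 in CON. The pellet groups did not overlap CON, while HD spanned the range of CON and beyond. MIX exceeded CON by 2.33 (SE 0.68, adjusted p = 0.419), E2 by 1.58 (SE 0.55, adjusted p = 1) and HD by 0.29 (SE 0.59, adjusted p = 1). Itgax, the integrin CD11c of dendritic cells and some macrophages, was at 5.98, 6.74 and 6.68 in MIX, 6.13, 6.04, 7.02 and 6.45 in E2, 6.05, 5.58 and 5.70 in HD and 6.00, 5.54 and 5.06 in CON. All E2 mice lay above all CON mice by a narrow margin, and MIX overlapped CON through MIX replicate 1. The difference was 1.09 (SE 0.35, adjusted p = 0.445) for MIX and 0.86 (SE 0.29, adjusted p = 1) for E2.

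Ccr2, the receptor that brings inflammatory monocytes into tissue, set 1 MIX mouse apart from the others: it was at 4.57, 6.36 and 6.43 in MIX, 5.47, 5.18, 4.93 and 5.32 in E2, 5.01, 5.14 and 4.70 in HD and 4.95, 4.70 and 4.42 in CON. MIX replicates 2 and 3 lay above every other mouse, and MIX replicate 1 lay within the CON range. The difference from CON was 1.23 (SE 0.47, adjusted p = 0.518) for MIX and 0.52 (SE 0.38, adjusted p = 1) for E2. Cd14, the coreceptor for bacterial lipopolysaccharide, was at 10.01, 8.5 and 10.92 in MIX, 9.57, 8.64, 8.66 and 8.49 in E2, 7.71, 8.05 and 8.46 in HD and 8.07, 7.73 and 7.72 in CON. Its pellet mice lay above all others, but the gap between E2 replicate 4 and HD replicate 3 was small. MIX exceeded HD by 1.77 (SE 0.59, adjusted p = 0.685) and CON by 2.00 (SE 0.59, adjusted p = 0.419).

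Itgam, the integrin CD11b of monocytes, macrophages and neutrophils, was chosen for a description mouse by mouse after its values were seen. Its group means, like those of Mrc1, ran from high to low in the order MIX, HD, E2 and CON. It was at 11.24, 9.44 and 10.98 in MIX, 9.81, 9.83, 8.71 and 8.34 in E2, 8.77, 10.12 and 10.89 in HD and 7.87, 8.51 and 7.16 in CON. HD and MIX lay above all CON mice, E2 overlapped CON, and HD had a higher mean (9.93) than E2 (9.17). The difference from CON was 2.88 (SE 0.76, adjusted p = 0.371) for MIX, 1.30 (SE 0.62, adjusted p = 1) for E2 and 2.08 (SE 0.66, adjusted p = 1) for HD.

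**Figure D3:**
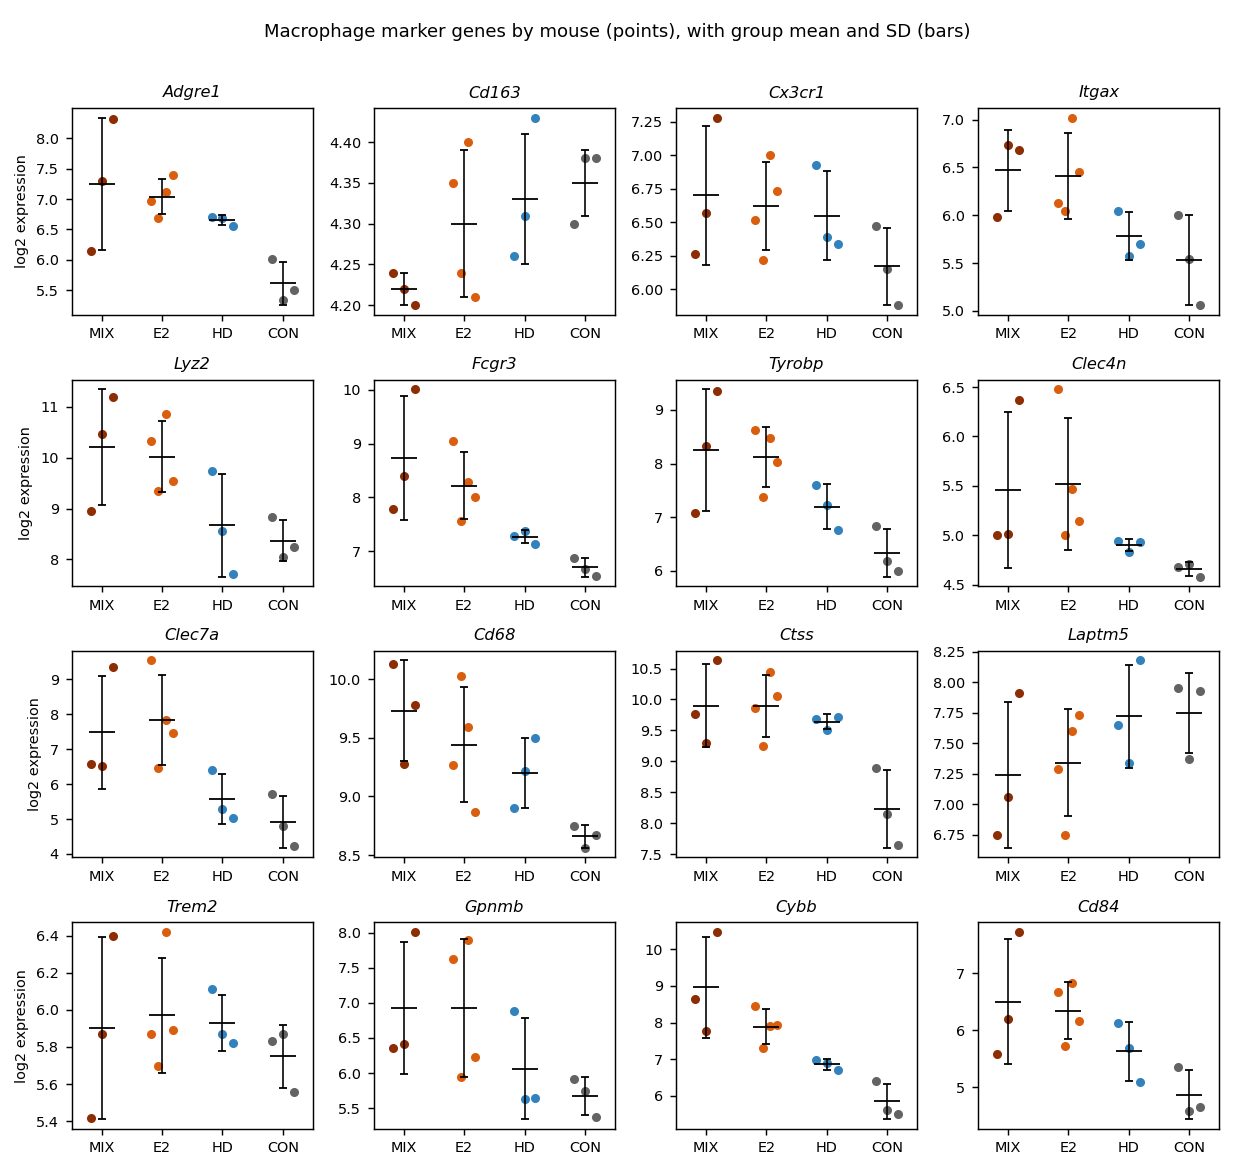
Panels give log2 expression of 16 members in each mouse as points, with the group mean as a horizontal dash and the SD as a vertical bar, in the order MIX, E2, HD and CON, each panel on its own scale. In Cybb, Clec7a, Clec4n and Fcgr3 every pellet mouse lies above every mouse without a pellet, while in Cd163 and Laptm5 the group means, though not all mice, run in the opposite order.

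All 5 Fc receptors and signalling adaptors were higher in E2, in HD and in MIX than in CON, with medians of 1.94 for MIX, 1.69 for E2 and 0.70 for HD, and for all 5 the E2 mice did not overlap the CON mice. Fcgr3, which encodes the low-affinity receptor CD16, was at 7.78, 8.39 and 10.01 in MIX, 9.04, 7.56, 8.29 and 8.00 in E2, 7.29, 7.37 and 7.14 in HD and 6.88, 6.67 and 6.55 in CON. Each pellet mouse lay above each HD mouse, and each HD mouse above each CON mouse. The difference from CON was 2.19 (SE 0.57, adjusted p = 0.367) for MIX, 1.5 (SE 0.47, adjusted p = 1) for E2 and 0.57 (SE 0.50, adjusted p = 1) for HD. Tyrobp, the adaptor DAP12 through which Trem2 and other receptors signal, was at 7.08, 8.32 and 9.35 in MIX, 8.63, 7.38, 8.48 and 8.02 in E2, 7.60, 7.22 and 6.76 in HD and 6.83, 6.18 and 5.99 in CON. Pellet mice lay above CON mice without overlap, and HD overlapped both. MIX exceeded CON by 2.20 (SE 0.58, adjusted p = 0.371) and E2 exceeded CON by 1.76 (SE 0.48, adjusted p = 1).

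Fcer1g, the shared gamma chain of activating Fc receptors, differed from CON by 1.94 (SE 0.63) in MIX and 1.83 (SE 0.51) in E2. Fcgr4, an activating receptor for IgG, had 1.7 (SE 0.83) in MIX and 1.69 (SE 0.68) in E2, and its value in MIX was 0.62 without MIX replicate 3 and E2 replicate 1. Its group mean was 4.22 in CON and 4.6 in HD, below the median of the arrays, where differences can be understated. Fcgr1, the high-affinity receptor CD64, was at 5.42, 5.78 and 7.82 in MIX, 6.20, 5.81, 6.63 and 7.07 in E2, 5.85 in each HD mouse and 5.42, 5.0 and 5.03 in CON. Here the E2 mean (6.43) stood above the MIX mean (6.34).

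Of the 4 pattern and scavenger receptors, Clec7a, Clec4n and Msr1 had higher means in MIX and in E2 than in CON, and Marco hardly differed. The median fitted difference from CON over the 4 was 0.88 for MIX and 0.78 for E2. Clec7a, which encodes the β-glucan receptor dectin-1, was at 6.58, 6.51 and 9.36 in MIX, 9.54, 6.47, 7.84 and 7.45 in E2, 6.39, 5.30 and 5.03 in HD and 5.71, 4.79 and 4.24 in CON. MIX replicate 3 and E2 replicate 1 stood far above the next mouse, E2 replicate 3, and the remaining pellet mice also lay above all mice without a pellet. MIX exceeded CON by 3.08 (SE 0.98, adjusted p = 0.443), E2 by 2.85 (SE 0.80, adjusted p = 1) and HD by 0.66 (SE 0.85, adjusted p = 1), and without those 2 mice the first differences were 1.97 and 2.34. Clec4n, which encodes dectin-2, was at 5.0, 5.01 and 6.37 in MIX, 6.48, 5.0, 5.47 and 5.14 in E2, 4.94, 4.83 and 4.93 in HD and 4.68, 4.71 and 4.58 in CON. The same 2 mice were highest. MIX minus CON was 0.94 (SE 0.47, adjusted p = 0.643), or 0.38 without them, and E2 minus CON was 0.85 (SE 0.38, adjusted p = 1), or 0.55 without them. Msr1, the scavenger receptor for modified lipoproteins, differed from CON by 0.82 (SE 0.43) in MIX and 0.72 (SE 0.35) in E2, with overlap in both. Marco, a scavenger receptor of alveolar and marginal zone macrophages, lay between 5.45 and 5.74 in all 13 mice and had a fitted difference from CON of 0.05 (SE 0.08) in MIX and 0.01 (SE 0.07) in E2. The sign in MIX rests on the code style term, since the means were 5.52 in MIX and 5.54 in CON, a plain difference of -0.03.

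Of the 7 measured lysosomal and endosomal genes, 6 were higher in each treated group than in CON. Ctss, the cathepsin that trims the invariant chain in antigen-presenting cells, was at 9.77, 9.30 and 10.63 in MIX, 9.86, 9.24, 10.44 and 10.06 in E2, 9.69, 9.5 and 9.72 in HD and 8.90, 8.15 and 7.65 in CON. All treated mice lay above all CON mice, and the treated groups overlapped each other. Its difference from CON was 1.77 (SE 0.46, adjusted p = 0.366) for MIX, 1.65 (SE 0.38, adjusted p = 1) for E2 and 1.40 (SE 0.40, adjusted p = 1) for HD. Cd68, a lysosomal glycoprotein of macrophages, was at 10.13, 9.28 and 9.78 in MIX, 9.27, 10.03, 9.59 and 8.87 in E2, 8.90, 9.22 and 9.5 in HD and 8.75, 8.56 and 8.67 in CON. Again no treated mouse overlapped CON, with 1.15 (SE 0.33, adjusted p = 0.419) for MIX, 0.77 (SE 0.27, adjusted p = 1) for E2 and 0.54 (SE 0.29, adjusted p = 1) for HD. Unlike most members, Cd68 was not highest in MIX replicate 3, and its MIX difference was again 1.15 without MIX replicate 3 and E2 replicate 1.

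Lgmn, the asparagine endopeptidase legumain, differed from CON by 1.28 (SE 0.43) in MIX and 0.92 (SE 0.35) in E2. For Pld4, a nuclease of endolysosomes, the values were 1.03 (SE 0.45) and 0.91 (SE 0.37), and for Slc11a1, the metal transporter NRAMP1 of phagosomes, 0.80 (SE 0.43) and 0.66 (SE 0.35). Ctsb, a cathepsin of nearly all cells, lay between 11.99 and 12.57 in all mice and differed by 0.04 (SE 0.17) and 0.09 (SE 0.14). Laptm5, a lysosomal membrane protein of hematopoietic cells, ran the other way: it was at 6.75, 7.06 and 7.91 in MIX, 7.29, 6.75, 7.60 and 7.73 in E2, 7.65, 7.34 and 8.18 in HD and 7.95, 7.37 and 7.93 in CON. The groups overlapped, and the lowest values were those of MIX replicate 1 and E2 replicate 2. MIX minus CON was -0.84 (SE 0.35, adjusted p = 0.559), a plain difference of means of -0.51, and E2 minus CON was -0.37 (SE 0.28, adjusted p = 1).

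The 2 measured lipid-handling members differed from each other. Gpnmb, a glycoprotein of lipid-laden and lysosome-stressed macrophages, was at 6.36, 6.42 and 8.01 in MIX, 7.63, 5.95, 7.89 and 6.23 in E2, 6.88, 5.63 and 5.65 in HD and 5.91, 5.74 and 5.37 in CON. Its pellet mice lay above all CON mice, 3 of the 7 also lay above every HD mouse, and HD overlapped every group. The difference from CON was 1.7 (SE 0.65, adjusted p = 0.517) for MIX, 1.20 (SE 0.53, adjusted p = 1) for E2 and 0.38 (SE 0.56, adjusted p = 1) for HD, and the MIX value was 1.11 without MIX replicate 3 and E2 replicate 1. Trem2, the lipid-sensing receptor that signals through Tyrobp, was at 5.42, 5.87 and 6.40 in MIX, 5.87, 5.70, 6.42 and 5.89 in E2, 6.11, 5.87 and 5.82 in HD and 5.83, 5.87 and 5.56 in CON. All groups overlapped, MIX replicate 1 was the lowest of all mice, and the differences from CON were 0.26 (SE 0.27, adjusted p = 0.837) for MIX, 0.20 (SE 0.22, adjusted p = 1) for E2 and 0.18 (SE 0.24, adjusted p = 1) for HD. Without those 2 mice the MIX value of Trem2 was 0.03.

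Cybb, the membrane subunit of the phagocyte NADPH oxidase, came nearest to the threshold of all members. It was at 8.65, 7.76 and 10.48 in MIX, 8.44, 7.30, 7.90 and 7.93 in E2, 6.98, 6.90 and 6.69 in HD and 6.40, 5.61 and 5.51 in CON. Each pellet mouse lay above each HD mouse and each HD mouse above each CON mouse. The difference from CON was 3.27 (SE 0.65, adjusted p = 0.251) for MIX, 2.03 (SE 0.53, adjusted p = 1) for E2 and 1.02 (SE 0.57, adjusted p = 1) for HD, and without MIX replicate 3 and E2 replicate 1 the first was 2.45 (SE 0.38, adjusted p = 0.182).

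Cd84, a self-binding receptor of leukocytes, was at 5.59, 6.19 and 7.72 in MIX, 6.67, 5.72, 6.83 and 6.16 in E2, 6.13, 5.68 and 5.09 in HD and 5.36, 4.59 and 4.65 in CON. Pellet mice lay above CON mice without overlap, and HD overlapped both. MIX exceeded CON by 1.94 (SE 0.56, adjusted p = 0.419) and E2 exceeded CON by 1.44 (SE 0.46, adjusted p = 1). Ms4a7, a tetraspan protein of macrophages, had its highest mean in E2 (5.97 ± 0.51, n = 4), with 5.67 ± 0.73 in MIX (n = 3), 5.49 ± 0.48 in HD (n = 3) and 4.63 ± 0.45 in CON (n = 3; mean ± SD). Ms4a6d, a relative of it, differed from CON by 1.12 (SE 0.53) in MIX, or 0.41 without MIX replicate 3 and E2 replicate 1, and by 0.91 (SE 0.44) in E2. Aif1, the actin-binding protein Iba1, differed by 0.36 (SE 0.24) and 0.43 (SE 0.20).

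Genes around the members were read from further lists. Csf1, the growth factor that macrophages depend on, was at 7.11, 7.18 and 7.58 in MIX, 7.46, 8.43, 7.90 and 7.63 in E2, 6.53, 6.99 and 6.78 in HD and 7.03, 6.46 and 6.20 in CON. All pellet mice lay above all mice without a pellet, and the averaged pellet difference was 0.99 (SE 0.19, adjusted p = 0.175). Its receptor gene Csf1r was at 7.18, 8.02 and 9.05 in MIX, 7.85, 7.56, 8.39 and 7.85 in E2, 7.70, 7.30 and 7.33 in HD and 7.14, 6.61 and 6.59 in CON, with 1.42 (SE 0.45, adjusted p = 0.443) for MIX minus CON and 1.12 (SE 0.37, adjusted p = 1) for E2 minus CON. Il34, the second ligand of Csf1r, differed from CON by 0.44 (SE 0.14, adjusted p = 0.453) in MIX and 0.05 (SE 0.12, adjusted p = 1) in E2. Csf1 averaged 7.29 in MIX and 7.85 in E2, while Csf1r averaged 8.08 in MIX and 7.92 in E2. Of the 12 measured growth factor and lineage genes, 4 were higher at an unadjusted p under 0.05 in the averaged pellet comparison (3.73% of all features). None of them passed (0.0167% of all features).

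Monocyte-recruiting chemokines and receptors were higher in 9 of 10 cases in the averaged pellet comparison, with a median of 0.67. At an unadjusted p under 0.05, 4 were higher (3.73% of all features). Ccl3, a chemokine for monocytes and neutrophils, had the smallest p with 2.13 (SE 0.67, adjusted p = 0.367), and Ccr1, 1 of its receptors, had 1.79 (SE 0.62, adjusted p = 0.406). Ccr1 was at 5.05, 4.35 and 7.87 in MIX, 7.12, 4.31, 5.30 and 5.01 in E2, 4.29, 4.12 and 4.01 in HD and 3.69, 3.78 and 3.52 in CON, so its 2 outlying values were in the mice in which Clec7a was also highest.

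Further resident macrophage genes gave a median averaged pellet difference of 0.23 over 15 genes, of which 10 were higher. The complement gene C1qb was at 8.43, 9.45 and 10.05 in MIX, 8.83, 8.41, 9.38 and 9.68 in E2, 8.55, 7.96 and 8.39 in HD and 8.05, 7.04 and 7.45 in CON, a pellet difference of 1.20 (SE 0.31, adjusted p = 0.299). The lectin gene Cd209f had -0.20 (SE 0.07, adjusted p = 0.378), on the same side as Cd163. Further monocyte genes gave a median of 0.49 over 10 genes, all higher, with Plac8 at 1.39 (SE 0.41, adjusted p = 0.345) and the haptoglobin gene Hp at 1.44 (SE 0.46, adjusted p = 0.376).

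Further lipid-handling genes gave a median of 0.48 over 15 genes, with 13 higher. At an unadjusted p under 0.05, 8 were higher (3.73% of all features). Lipa, the lysosomal lipase that frees cholesterol from its esters, was at 8.43, 9.28 and 9.44 in MIX, 8.36, 8.59, 8.71 and 8.34 in E2, 8.17, 7.77 and 8.04 in HD and 7.78, 7.39 and 7.35 in CON. Pellet mice lay above all others and 2 of the 3 HD mice above all CON mice, and the averaged pellet difference was 1.06 (SE 0.18, adjusted p = 0.133). Npc2, which carries cholesterol out of lysosomes, had 0.42 (SE 0.08, adjusted p = 0.189). Both are expressed by many cell types.

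Markers of other leukocytes were read in the same mice. Pan-leukocyte genes, 9 in number, averaged 6.71, 7.61 and 8.68 in MIX, 7.80, 6.82, 7.21 and 7.34 in E2, 6.69, 6.61 and 6.57 in HD and 6.63, 6.38 and 6.24 in CON, and all 9 had a positive averaged pellet difference (median 0.84). Cd53 had 2.09 (SE 0.51, adjusted p = 0.269) and Ptprc, which encodes CD45, 1.42 (SE 0.38, adjusted p = 0.31). The 13 neutrophil genes averaged from 5.66 to 8.31 in MIX, 5.73 to 7.16 in E2, 5.36 to 5.65 in HD and 4.99 to 5.31 in CON, and 8 of them had a positive pellet difference (median 0.90). S100a8 had 4.25 (SE 0.92, adjusted p = 0.225 in limma) and S100a9 3.81 (SE 0.86, adjusted p = 0.235), both larger than for any macrophage marker. Not all genes of the list followed in their group means. Ly6g averaged 7.06 in MIX, 7.26 in E2, 7.33 in HD and 7.02 in CON. Its highest values were still those of MIX replicate 3 (8.42) and E2 replicate 1 (8.20). Mpo, Elane and Camp had their highest group mean in CON. S100a8 was at 8.10, 5.82 and 11.37 in MIX, 9.91, 6.13, 6.74 and 7.59 in E2, 4.35, 3.62 and 4.64 in HD and 3.67, 3.17 and 3.00 in CON, and so was highest in MIX replicate 3 and E2 replicate 1. S100a9, Csf3r, Cxcr2, Retnlg, Mmp8 and Mmp9 were highest in the same mice. Of the 13 neutrophil genes, 2 in MIX, 3 in E2, 4 in HD and 4 in CON had a group mean below the median of the arrays. How far neutrophil RNA enters the values of Itgam, Cybb, Clec7a, Cd14 and the Fc receptors was not tested.

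Further cell type lists were read in the same way. The averaged pellet difference had a median of 0.38 over 13 T and NK cell genes, all above 0, of 0.10 over 10 dendritic cell genes, 0.07 over 7 B and plasma cell genes, 0.02 over 7 mast cell genes and 0.08 over 4 eosinophil genes. Tissue markers gave 0.02 for 10 epithelial, 0.41 for 11 stromal, 0.32 for 8 endothelial, -0.16 for 8 smooth muscle and -0.21 for 7 adipocyte genes. Mesothelial genes had a median of 0.99 over 7 genes, above the 0.81 of the macrophage markers, with Krt5 at 2.80 (SE 0.38, adjusted p = 0.077) and Muc16 at 0.97 (SE 0.17, adjusted p = 0.156), although Krt5 also marks squamous epithelium. Of the 2 measured red cell genes, Alas2 passed (1.22, SE 0.11, adjusted p = 0.0148), with a plain difference of 0.81. Their part in the macrophage markers was not tested.

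**Figure D4:**
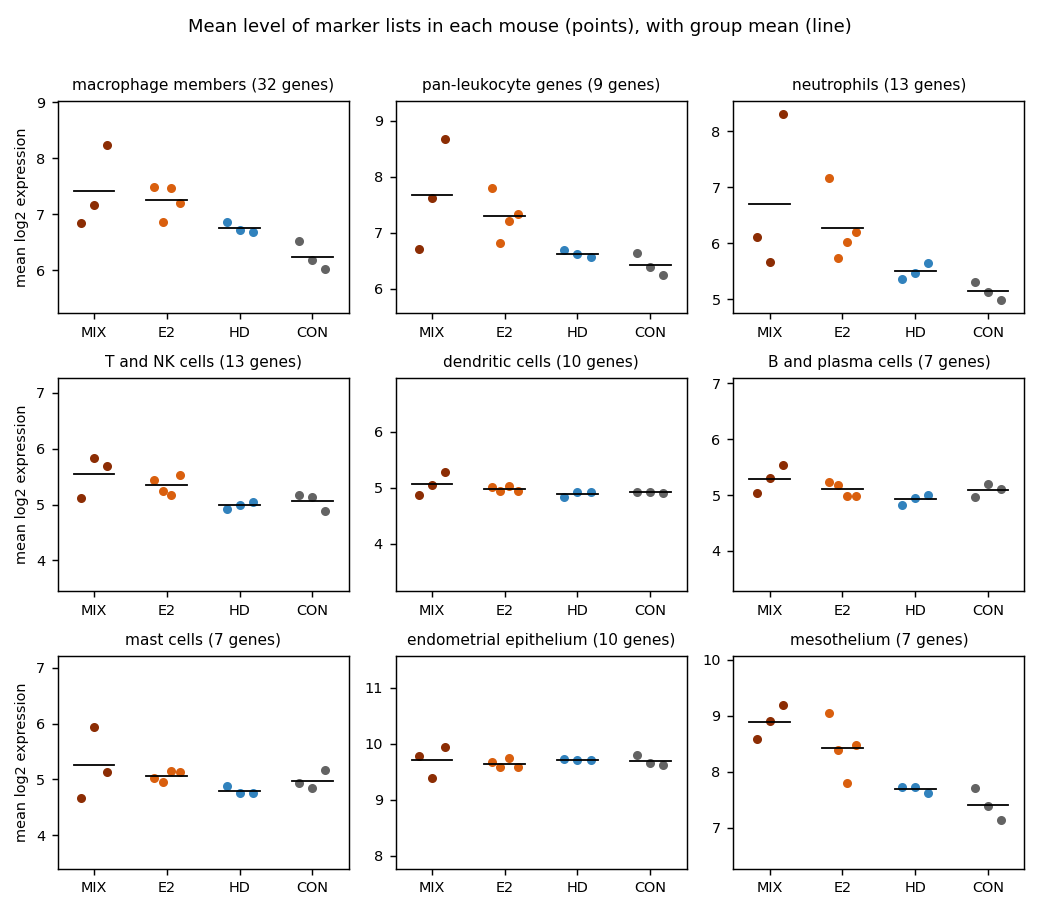
Points give the mean log2 expression of each marker list in each mouse and lines the group mean, in the order MIX, E2, HD and CON, with the same axis length of 3.8 log2 units in every panel. Macrophage, pan-leukocyte, neutrophil and mesothelial lists have higher group means in the pellet groups than in HD and CON, with MIX replicate 3 on top. In the macrophage panel MIX replicate 1 (6.84) still lies below HD replicate 1 (6.86). Epithelial markers stay between 9.40 and 9.94.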

How the data were processed

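The deposited values are log2 expression, normalised by RMA per the submitters' processing notes, with the software version not given in the sources used here. Per the labels' protocols, total RNA of scraped endometrium (250 ng) was labelled with a whole-transcript kit and hybridised to Affymetrix arrays, 1 for each of 13 mice. No probe-level intensities were used here, so the number of mice limits the precision. Array medians lay between 4.48 and 4.71.

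Features were named from the platform annotation: 30604 carry 1 symbol, 2146 several and 33179 none, and 827 symbols were updated through Entrez IDs. All 65929 features were fitted in limma 3.58.1 (R 4.3.3) with lmFit and eBayes, with 4 group terms and a term for numbered or lettered title codes. Tests were two-sided, with Benjamini-Hochberg adjustment over all features and a threshold of 0.05. Comparisons were MIX, E2 and HD against CON, MIX against E2 and HD, the pellet averaged over both diets, and the interaction. The script was tested on simulated data.

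The members, the 19 other gene lists (178 of 193 symbols measured) and the 16 members described mouse by mouse were chosen with earlier results of these data known. Mouse by mouse values are given for the 2 members of each role group with the smallest p in the averaged pellet comparison and for members with the opposite sign, and of each other list the genes that pass, or else the 2 with the smallest p there, may be named, besides Csf1, Csf1r and Il34. Genes described beyond these (Itgam, Fcgr1, Ccr2, Cd14, Mrc1 and Ccr1 among them) were chosen after their values were seen. Alternatives were no code style term, a replicate block, trended robust variances, array weights, a filter on dim features, median centring, only the groups compared, averaged features, and each mouse left out. Medians were also taken within each code style. Leaving out MIX replicate 3 with E2 replicate 1, and every alternative for the counts without overlap, were chosen after seeing the data. Same-numbered mice of different groups correlated between -0.261 and 0.31, so the numbers were not taken as pairs. Motifs were searched in RefSeq windows with Python 3.11.15.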

Additional observations from a re-analysis of the deposited data

Results flagged for a closer look

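Of the 32 members tested in the 4 E2 mice, 2 had a mouse far from the others by Dixon's criterion for groups of 4, where chance alone gives about 1 in 20. Mrc1 was at 5.5 in E2 replicate 3, against 6.2, 6.28 and 6.34 in the other E2 mice (ratio 0.834). Cd14 was at 9.57 in E2 replicate 1, against 8.49, 8.64 and 8.66 in the others (ratio 0.839). The groups of 3 mice were too small for this criterion.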

How the results depend on the processing

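No member passed at an adjusted p under 0.05 with all mice, and with single mice left out the number passing ranged from 0 to 1 for MIX against CON, 0 to 1 for MIX against HD and 0 to 3 for the averaged pellet comparison. The share of all features passing in those refits is not given. With the replicate block, which shares only a number, the median member difference was 2.00 for MIX against CON, 1.27 for MIX against E2, 1.34 for MIX against HD and 0.87 for the interaction, and the counts higher at an unadjusted p under 0.05 were 25, 13 and 22 for the first 3 and 6 for E2 against CON. For MIX against E2 the median was -0.04 with array weights, -0.08 without MIX replicate 3 and E2 replicate 1, and -0.11 to 0.47 with single mice left out. For the interaction it was -0.54 to 0.08 with single mice left out. Trem2 in E2 against CON was -0.07 with the replicate block, and Cd163 in E2 against CON was -0.09 to 0.01 with single mice left out. The cause of these shifts was not tested. Counted as pairs of a comparison and a setting, 153 medians stayed within the spread between mice and 8 moved. Single genes were counted only for the members picked by smallest p or opposite sign, in E2 against CON, MIX against CON and the averaged pellet comparison. Counted there as a gene in a comparison and a setting, 1097 kept their direction without passing, 2 reversed and 2 passed. The passes of Ccr2 and Fcer1g lie outside this count, and so do changes in the other comparisons. In MIX against E2, 26 members were higher with all mice and 11 without MIX replicate 3. These counts reuse the same mice and are not independent. Precision is limited by 3 or 4 mice a group. No background level was measured here, so how far low values, such as those of Cd163 in every group and of Fcgr4 and Msr1 in HD and CON, lie above it is unknown.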
